A study of Mus musculus with 8 samples.

Results

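Cullin-RING ubiquitin ligases are built on a cullin scaffold and recruit their substrates through interchangeable receptors, and the genes described here are the cullins and 8 named groups of receptor genes. The deposited gene table lists 56324 gene models, and 182 of them, with 179 symbols, carry a symbol that begins with Cul, Fbxl, Fbxo, Fbxw, Klhl, Kbtbd, Btbd, Kctd or Asb followed by a member number. They divide into 7 cullins, the F-box models (19 Fbxl, 37 Fbxo and 22 Fbxw), the models of proteins with a BTB domain (36 Klhl, 9 Kbtbd, 12 Btbd and 22 Kctd) and 18 Asb models. The measurement was RNA of separated male germ cells, in 4 libraries of spermatocytes and 4 of spermatids. All 8 libraries were labelled Sam68 -/-, a knockout of this RNA-binding protein, and came from C57BL/6 males of 12 weeks. The cells had been separated by sedimentation at unit gravity (Sta-put), and the labels do not state whether replicate libraries stem from different mice. A p-value here thus reflects only how much these libraries vary, and that variation may be technical. Libraries of another genotype were not analysed here, and every difference below is one between cell types of Sam68 -/- mice. With a single genotype, the level of the targeted gene checks no label.

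In such a ligase the cullin holds a RING protein, Rbx1 or Rnf7, which brings the ubiquitin-loaded enzyme, at one end, and a receptor for the substrate at the other. Cul1 binds F-box proteins through Skp1, Cul3 binds BTB proteins directly, Cul4a binds WD-repeat receptors through Ddb1, and Cul2 and Cul5 bind proteins with a SOCS or VHL box, the Asb proteins among them, through elongins B and C. The small protein NEDD8 is attached to the cullin to activate the ligase, and the COP9 signalosome takes it off. In the mouse testis Klhl10 is known as a receptor of Cul3 in spermatids that males need for fertility, and Kctd19 and Fbxo47 as proteins that spermatocytes need to complete meiosis.

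Sequencing depth was 49000266 to 78060212 reads for spermatocytes and 60673309 to 93975960 for spermatids. Values are normalized counts, the read count of a gene model divided by a size factor of its library, and 3 reads, taken as the floor, correspond to 2.42 to 4.50 normalized counts. Where 4 values follow each other, they are those of libraries 1 to 4 of that cell type in order. In their means, markers of both cell types went with the labels: the mean log2 level of 8 spermatid markers was 10.36 to 10.68 in spermatocytes and 14.71 to 15.01 in spermatids, and that of 7 spermatocyte markers was 12.51 to 13.51 and 10.61 to 11.14. Libraries 3 and 4 stood apart among the spermatocytes. Library 3 had the highest mean log2 level of 10 Sertoli cell markers, 12.27 beside 10.01, 10.60 and 11.05 in libraries 1, 2 and 4 and 6.94 to 8.22 in spermatids. Library 4 had low levels of the spermatocyte markers Sycp1 (1653 normalized counts, beside 12679.6 to 26689.6 in libraries 1 to 3), Sycp3 (3303, beside 15595 to 17490.1) and Hormad1 (1395, beside 6447 to 9289). These levels lay below every spermatid library (8626 to 14192, 4421 to 11243 and 1736 to 4365), against the label. The spermatocyte markers Spo11, Mlh3, Piwil1 and Pou5f2 were above every spermatid library in library 4.

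A member was tested where at least 4 libraries had 10 normalized counts or more, and 166 of the 182 models passed, while the other 16 had at most 51.4 in any library and 2 of them, Fbxw14 and Fbxw28, had 0 in all 8. A low member can thus pass through a single cell type, which favours a difference in that direction. Among those that passed through spermatids alone were Fbxw20, Kctd4 and Klhl6. A gene is called changed at a limma adjusted p below 0.05, adjusted over all 28735 tested models, with a log2 fold change of at least 1 in size. Of the 166 tested members 52 were called higher in spermatids (31.3%) and 40 lower (24.1%), beside 32.5% and 29.8% of all tested models and 35.6% and 21.1% of those that carry a symbol. A change of at least 8-fold was called higher in 21 members (12.7%, beside 17.9% of all models) and lower in 8 (4.82%, beside 10.7%), and among models with a symbol these shares were 18.2% and 2.54%. Groups did not overlap in 107 members (64.5%, beside 66.4% of all models and 63.7% of those with a symbol). The median log2 fold change of the tested members was 0.15 beside -0.01 over all tested models. The median size of the change was 1.19 beside 1.56. The share called higher lies slightly below both backgrounds and the share called lower between them. The share of 8-fold rises lies below both, and that of 8-fold falls between them. Nothing is read from these shares as particular to the members, and what follows describes single members and families. In bulk samples such as these, fewer cells of a type and less RNA per cell cannot be told apart.

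The direction of many small changes depends on how libraries are scaled. Of the members' calls 56.5% were higher with the deposited size factors, 44.6% with equal total reads, 44.1% after quantile normalization and 45.7% after a correction for GC content, with 45 higher and 56 lower, 45 and 57, and 42 and 50 members. The median of all tested models moved from -0.01 to -0.44 with equal totals, to -0.36 with quantile normalization and to 0.12 with TMM factors, and over genes with a known GC content from 0.25 to -0.07 with the GC correction. The members' own median moved with it, to -0.28, -0.18, 0.28 and -0.25. Of the 52 rises 45 were called again with equal totals, and all 40 falls. At a filter of 50 normalized counts, 43 of the 52 rises and 39 of the 40 falls were called again. Changes of a size below these shifts are given as values.

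**Figure D1:**
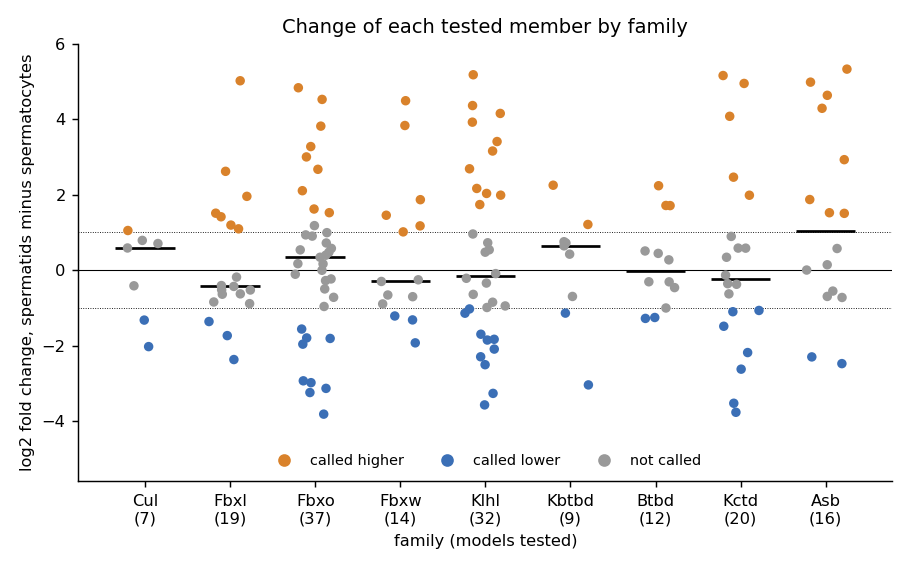
Log2 fold change (spermatids minus spermatocytes, vertical axis) of each of the 166 tested members, grouped by family, with the number of tested models under each name. Points are models, orange called higher, blue called lower and grey not called, black bars are family medians, and dotted lines mark the fold threshold of 1. Every family holds calls in both directions, and the Asb family has the highest median, 1.04.

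Among the scaffolds, Cul3 and Cul1 stayed abundant in both cell types while Cul4a and Cul9 were lower in spermatids. Cul4a, the scaffold of ligases that act in DNA replication and repair, had 22228, 23614, 30165 and 23029 in spermatocytes and 6667, 6403, 5385 and 5739 in spermatids. The groups did not overlap, and the mean was 4.09-fold lower in spermatids (log2 change -2.03, SE 0.16, limma adjusted p = 3.48e-07). Cul9, a large cullin known to bind p53, had 2809, 2729, 3490.0 and 3731 in spermatocytes and 1408, 1167, 1299 and 1189 in spermatids. Its groups did not overlap either, and it fell 2.52-fold (log2 change -1.32, SE 0.17, limma adjusted p = 2.01e-05). Both falls were called in each of the 8 fits that left out a single library, with log2 changes of -2.08 to -1.93 and -1.39 to -1.24.

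With the deposited scaling Cul5 alone among the cullins was called higher, and that call was lost under 9 alternatives. It had 5205, 5757, 3265 and 2488 in spermatocytes and 6458, 9274, 8449 and 8899.8 in spermatids. All spermatid libraries lay above all spermatocyte libraries, with spermatocyte libraries 3 and 4 the lowest (log2 change 1.05, SE 0.26, limma adjusted p = 0.00297). The log2 change was 0.615 with equal totals, 0.558 after quantile normalization and 0.139 when corrected for GC content, below the fold threshold in each, and 0.582 without spermatocyte libraries 3 and 4. It was also under 1 with edgeR (0.983) and DESeq2 (0.992), and without spermatocyte library 3 (0.961), spermatocyte library 4 (0.83) or spermatid library 2 (0.993).

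Cul3, the most abundant cullin, had 49784, 54409, 40935 and 24539 in spermatocytes and 52554, 73424, 71712 and 69821 in spermatids. Spermatocyte library 4 was the lowest and spermatid library 1 overlapped the spermatocyte range, and the change was not called (log2 change 0.71, SE 0.24, limma adjusted p = 0.0203). It was 0.46 without spermatocyte library 4 and 0.35 without libraries 3 and 4. After the GC correction its sign turned, to -0.25. Cul1, the scaffold for F-box receptors, had 11848, 13221, 13596 and 8062 in spermatocytes and 15658, 16774, 18165 and 18411 in spermatids. The groups did not overlap, but the change was under the fold threshold (log2 change 0.59, SE 0.19, limma adjusted p = 0.0146). Cul2, which works with the von Hippel-Lindau receptor, had 2924, 3758, 4002 and 1438 in spermatocytes and 1913, 2067, 2261 and 2241 in spermatids, and the low value of spermatocyte library 4 made the groups overlap (log2 change -0.41, SE 0.28, limma adjusted p = 0.206). Without that library the change was -0.74. After the GC correction Cul2 was called lower, at -1.20. Cul7, which pairs with the receptor Fbxw8, had 222, 171, 401 and 377 in spermatocytes and 913, 235, 426 and 564 in spermatids. The widest spread lay within spermatids and the change was not called (log2 change 0.79, SE 0.41, limma adjusted p = 0.0986). Without spermatocyte libraries 3 and 4 Cul7 was called higher at 1.29, and without spermatid library 2 at 1.13.

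Per length of exon, the order of the cullins changed between the cell types. In spermatocytes Cul3 had 8704 ± 2701 normalized counts per kb of exon, Cul4a 3864 ± 569, Cul1 2892 ± 626, Cul2 719 ± 275, Cul5 512 ± 190.2, Cul9 262 ± 40.7 and Cul7 39.5 ± 15.3 (mean ± SD, n = 4). Among neighbours in that order the ranges of Cul2 and Cul5 overlapped, and those of Cul5 and Cul9 met at spermatocyte library 4. In spermatids Cul3 had 13724 ± 1983 per kb, Cul1 4270.3 ± 318, Cul5 1013 ± 154, Cul4a 944 ± 92.1, Cul2 503 ± 38.8, Cul9 104 ± 9.10 and Cul7 72.1 ± 38.6. There Cul5 overlapped Cul4a, and Cul9 overlapped Cul7. Cul4a thus stood between Cul3 and Cul1 in spermatocytes and level with Cul5 in spermatids.

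**Figure D2:**
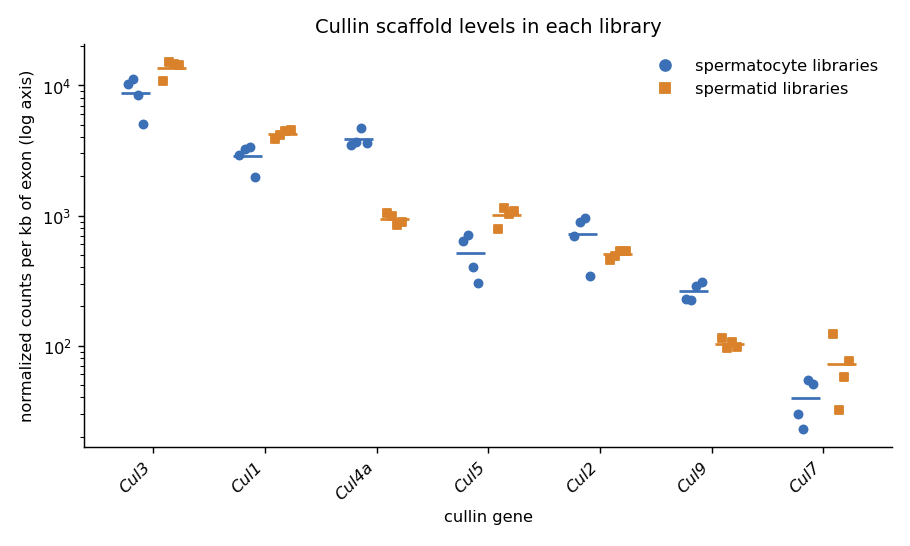
Normalized counts per kb of exon (log axis) of the 7 cullins in every library, spermatocytes as blue circles and spermatids as orange squares, with bars at the group means. Cul4a and Cul9 sit lower in all 4 spermatid libraries than in any spermatocyte library, and Cul3 is the highest cullin in both cell types.

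F-box proteins are the receptors of Cul1 ligases, and their genes moved both ways. Of 19 tested Fbxl models, whose proteins carry leucine-rich repeats, 7 rose, 3 fell and 9 were not called. Of 37 Fbxo models 9 rose and 9 fell, and of 14 tested Fbxw models, which carry WD repeats, 6 rose and 3 fell. The Fbxl split became 4 to 6 with equal totals, 5 to 8 with quantile normalization and 6 to 5 with the GC correction, and the Fbxw split became 4 to 5, 4 to 5 and 3 to 4. The Fbxo split became 9 to 11, 8 to 11 and 8 to 10 in the same order, and 12 to 9 with TMM factors. The median log2 fold change was -0.43 for Fbxl, 0.34 for Fbxo and -0.28 for Fbxw. Beside these and the family counts below, 32.5% of all tested models rose and 29.8% fell. Among models with a symbol these shares were 35.6% and 21.1%. Nothing is read from the splits as particular to a family.

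Fbxl13, whose product is a subunit of the dynein regulatory complex of sperm tails and other motile axonemes, rose 32.4-fold. It had 1023, 1290.5, 1152 and 714 in spermatocytes and 23791, 34172, 40054 and 37527 in spermatids (log2 change 5.02, SE 0.23, limma adjusted p = 2.69e-09). Every spermatid library exceeded the highest spermatocyte library by far. Fbxo39, at chromosome 11, 72314444 to 72319419 (mm10), had 316, 198, 302 and 213 in spermatocytes and 6711, 5907, 8317 and 8344 in spermatids and rose 28.4-fold (log2 change 4.84, SE 0.21, limma adjusted p = 2.33e-09). Fbxo24, which mice need for male fertility, had 1285, 983, 933 and 1319.8 in spermatocytes and 14079.5, 13744, 18623 and 17266 in spermatids. The groups were clearly apart and the rise was 14.1-fold (log2 change 3.82, SE 0.19, limma adjusted p = 4.63e-09).

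Fbxo2, Fbxo6, Fbxo17, Fbxo27 and Fbxo44 share an F-box-associated domain, through which Fbxo2 and Fbxo6 are known to bind sugar chains of glycoproteins, and their genes moved in different directions. Fbxo2 rose, with 71.9 to 125 in spermatocytes and 1976 to 2695 in spermatids (log2 fold change 4.53, limma adjusted p = 6.85e-09). Fbxo44 had 526, 565, 511 and 642 in spermatocytes and 3734, 4977, 4556 and 4803 in spermatids (log2 change 3.004, SE 0.17, limma adjusted p = 1.79e-08), and Fbxo6, its neighbour on chromosome 4, had 405, 276, 403 and 379 in spermatocytes and 1671, 1346, 1569 and 1686 in spermatids (log2 change 2.11, SE 0.20, limma adjusted p = 1.20e-06). Neither overlapped between groups. Fbxo17 fell, with 373 to 855 in spermatocytes and 51.4 to 67.6 in spermatids (-3.25 on the log2 scale, limma adjusted p = 8.84e-07), and Fbxo27 was not called at -0.28, or 0.48 without spermatocyte libraries 3 and 4.

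Fbxo43 (Emi2), an inhibitor of the anaphase-promoting complex that acts in meiosis, showed the largest fall of the F-box genes. It had 11975, 9858, 11040.2 and 8486 in spermatocytes and 749, 719, 1029.8 and 501 in spermatids. The lowest spermatocyte library was above the highest spermatid library by several fold, and the mean fell 13.8-fold (log2 change -3.82, SE 0.22, limma adjusted p = 2.07e-08). Its relative Fbxo5 (Emi1), which acts in the mitotic cycle, had 83.8, 64.8, 196 and 151 in spermatocytes and 236, 61.7, 164 and 175 in spermatids, with both ranges lying over each other (log2 change 0.34, SE 0.45, limma adjusted p = 0.513), its sign turned with the scaling, and it was 0.95 without spermatocyte libraries 3 and 4. Fbxo47, a meiotic gene, was higher in spermatids, with 124, 127, 195 and 71.9 in spermatocytes and 1146, 457, 871 and 827 in spermatids (log2 change 2.68, SE 0.35, limma adjusted p = 1.93e-05). Its spermatid values spread widely, from library 2 to library 1, and did not overlap with spermatocytes.

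Other called falls were those of Fbxo9 (-3.14), Fbxo48 (-2.98), Fbxo3 (-2.94), Fbxo22 (-1.96), Fbxo4 (-1.81), Fbxo25 (-1.80) and Fbxo7 (-1.56) on the log2 scale. The deepest Fbxl fall was that of 1 of 2 Fbxl18 models, the higher in the mean of all 8 libraries. It had 587, 532, 873 and 686 in spermatocytes and 180.0, 109, 111 and 116 in spermatids (log2 change -2.37, SE 0.26, limma adjusted p = 4.11e-06). Its lone high spermatid library, library 1, stayed below every spermatocyte library. The second Fbxl18 model was not called, at -0.63, and was the higher of the 2 in every spermatid library. With equal totals (-1.06) and quantile normalization (-1.01) it was called lower too. Fbxo30, the Fbxo gene with the highest mean count, rose from 14889, 13979.5, 7325 and 7459.7 to 26023, 33275, 31779 and 28376 (log2 change 1.53, SE 0.25, limma adjusted p = 0.000135). Libraries 3 and 4 were the low ones among its spermatocytes, and its call was lost with quantile normalization (0.968) and the GC correction (0.547). Fbxl15 rose (2.62), with 25.6% of its exon length shared with Cuedc2 on the other strand, and Fbxl12 rose (1.51), with 37.1% shared with Ubl5. Fbxo22 shares 15.4% of its exon length with Nrg4 on the other strand. The strand setting of the counting is not given, so reads of such pairs cannot be assigned with certainty.

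Some F-box genes at high levels were not called. Fbxw5, known to target the centriole protein SAS-6, had 64997, 54163, 35412 and 68388 in spermatocytes and 31987, 39636, 33564 and 28509.5 in spermatids. Spermatocyte library 3 fell inside the spermatid range (log2 change -0.70, SE 0.22, limma adjusted p = 0.0120), and with equal totals or quantile normalization Fbxw5 passed the fold threshold, at -1.14 and -1.20. Fbxw7, the receptor for cyclin E and Myc, had 3122, 3003, 2491 and 2493 in spermatocytes and 1866, 2602, 2294 and 2280.2 in spermatids, with overlapping groups (log2 change -0.30, SE 0.17, limma adjusted p = 0.136). Fbxw17 had 329, 339, 262 and 340.2 in spermatocytes and 83.3, 106, 78.1 and 66.4 in spermatids and fell 3.81-fold (log2 change -1.93, SE 0.25, limma adjusted p = 1.79e-05).

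A cluster of 13 Fbxw models lies on chromosome 9 between 109139450 and 109773905 (mm10), and 5 of them were tested. Fbxw27 had 346, 271, 234 and 170.1 in spermatocytes and 793, 971, 1010.3 and 865 in spermatids, without overlap (log2 change 1.87, SE 0.24, limma adjusted p = 1.90e-05). Fbxw18 was higher as well (1.46, limma adjusted p = 0.00134), a call that was lost after the GC correction (0.93). Fbxw26 was higher too, with 0 to 12.1 in spermatocytes and 43.0 to 79.6 in spermatids (log2 fold change 3.84, or 3.18 without spermatocyte library 2). Fbxw20 had 0 reads in all 4 spermatocyte libraries and 22.4, 15.0, 21.0 and 30.5 normalized counts in spermatids, at least 7.32-fold above the mean floor of 3 reads per library. Fbxw15 was at 0 to 16.9 in all 8 libraries and was not called. The other 8 models stayed at or below 12.5. Genes of this cluster are close copies of each other, so the sharing of reads among them is uncertain.

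BTB proteins serve Cul3. Of 32 tested Klhl models, which carry kelch repeats, 11 rose, 10 fell and 11 were not called. The split became 11 to 14 with equal totals and with quantile normalization, 10 to 12 with the GC correction and 12 to 9 with TMM factors. Klhl10 rose 36.7-fold and became the member with the highest level per kb of exon in spermatids, at 25785 ± 6124 normalized counts per kb, beside 702 ± 141 in spermatocytes (mean ± SD, n = 4). It lies on chromosome 11, 100441922 to 100457024 (mm10) and had 1220.2, 1837, 1716 and 1297 in spermatocytes and 36835, 56404, 65962 and 63688 in spermatids (log2 change 5.18, SE 0.22, limma adjusted p = 1.94e-09). All spermatid libraries were far above the highest spermatocyte library. Per kb, its spermatid range overlapped that of Kctd19, the next member in that order.

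Klhl31, Klhl40 and Klhl41 are known from skeletal muscle. Klhl41 had 42.5 to 59.6 in spermatocytes and 471 to 596 in spermatids (log2 change 3.41) and Klhl31 6.87 to 17.1 in spermatocytes and 162 to 387 in spermatids (4.37), both called, while Klhl40 was not called at -0.99. Klhl40 was called lower with edgeR (-1.01) and DESeq2 (-1.03), with equal totals (-1.42), when corrected for GC content (-1.07) and on quantile-normalized values (-1.32). Klhl28 (3.16), Klhl12 (2.69), Klhl11 (1.99) and Klhl24 (1.74) also rose, and the call of Klhl24 was lost after the GC correction (0.985). Klhl12 is known with Cul3 to modify the COPII coat protein Sec31. Klhl9, Klhl13 and Klhl21 are known from human cells as Cul3 receptors for Aurora B during mitosis. Klhl9 had 4931, 4921, 4079 and 2524 in spermatocytes and 1082, 706, 739 and 756 in spermatids (log2 change -2.30, SE 0.24, limma adjusted p = 3.16e-06). Klhl13, on the X chromosome, had 8.87, 5.89, 34.7 and 22.8 in spermatocytes and 103, 52.3, 60.0 and 68.6 in spermatids (log2 change 2.17, SE 0.51, limma adjusted p = 0.00220), with a change of 3.08 without spermatocyte libraries 3 and 4. Klhl9 thus fell and Klhl13 rose, each without overlap, and Klhl21 fell by 1.83 on the log2 scale. Klhl20 (-1.85) and Klhl18 (-2.09) fell as well.

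Of 9 Kbtbd models 2 rose and 2 fell, and with equal totals, quantile normalization or the GC correction 1 rose and 3 fell. Kbtbd8, which with Cul3 modifies ribosome-biogenesis proteins in the neural crest, had 1041, 1296, 1219 and 868 in spermatocytes and 163, 118, 143 and 109.9 in spermatids and fell 8.30-fold without overlap (log2 change -3.04, SE 0.23, limma adjusted p = 1.82e-07). Kbtbd4 had 307, 319.9, 347 and 489.8 in spermatocytes and 1356, 2028, 2085 and 1518 in spermatids (log2 change 2.25, SE 0.23, limma adjusted p = 2.09e-06), but 55.6% of its exon length is shared with Ptpmt1 and Ndufs3 on the other strand. Kbtbd11, the Kbtbd gene with the highest count, had 7169, 5606, 2504 and 6012 in spermatocytes and 2053, 2746, 2324 and 1962 in spermatids. Spermatocyte library 3 lay inside the spermatid range (log2 change -1.14, SE 0.29, limma adjusted p = 0.00352), and without spermatocyte library 1 the change was -0.962 and not called. Of Kbtbd11's exon length 24.8% is shared with Gm37844 on the other strand.

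Of 12 Btbd models 3 rose and 2 fell, which became 3 and 3 with equal totals and 2 and 2 with the GC correction. Btbd9 had 495, 527, 683 and 703 in spermatocytes and 2527, 2505, 3207 and 3091 in spermatids and rose 4.70-fold without overlap (log2 change 2.24, SE 0.19, limma adjusted p = 5.20e-07). Btbd10 had 7733, 9189, 7828 and 4798 in spermatocytes and 20484, 23607, 25474 and 25265 in spermatids (log2 change 1.72, SE 0.21, limma adjusted p = 1.03e-05), and its call was lost after the GC correction (0.554). Btbd8 fell from 903, 796, 532 and 323 to 226, 269, 279 and 208 (log2 change -1.28, SE 0.31, limma adjusted p = 0.00265), with 19.2% of its exon length shared with a model on the same strand, Gm42669.

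Kctd proteins have a BTB domain, and some are auxiliary subunits of GABA-B receptors. Of 20 tested models 5 rose and 7 fell, which became 6 and 5 with TMM factors. Kctd19, needed for male meiosis, had 74824, 77291, 64833 and 88452 in spermatocytes and 46445, 67900.2, 63207 and 58887 in spermatids. It was the member with the highest level per kb of exon in spermatocytes, at 25049 ± 3183 normalized counts per kb, beside 19393 ± 3022 in spermatids (mean ± SD, n = 4), and was not called (log2 change -0.37, SE 0.18, limma adjusted p = 0.0746). Spermatid library 2 overlapped the spermatocyte range. Per kb, its spermatocyte range overlapped that of Fbxw5, the next member in that order. Kctd7, mutated in a form of human epilepsy, had 9401, 9631, 9675 and 9641 in spermatocytes and 951, 939, 767 and 689 in spermatids. The spermatocyte values were nearly equal and all spermatid values far below, a fall of 11.5-fold (log2 change -3.53, SE 0.16, limma adjusted p = 3.44e-09).

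Kctd16, one of the GABA-B receptor subunits, rose 36.1-fold, with 94.3, 89.3, 103 and 63.9 in spermatocytes and 2632, 2742, 3864 and 3425 in spermatids (log2 change 5.16, SE 0.23, limma adjusted p = 2.27e-09). The 4 spermatid libraries lay together and far above the spermatocytes. Kctd12, of the same subgroup, was called lower at -1.49, and Kctd8 was not tested. A merged model of Kctd11 and Tmem95 rose by 4.95 on the log2 scale, and the table does not divide its reads between both genes. Kctd20 (2.47) rose, and Kctd18 (-2.63) and Kctd2 (-2.19) fell. Of Kctd18's exon length 18.9% is shared with Sgo2a on the other strand.

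**Figure D3:**
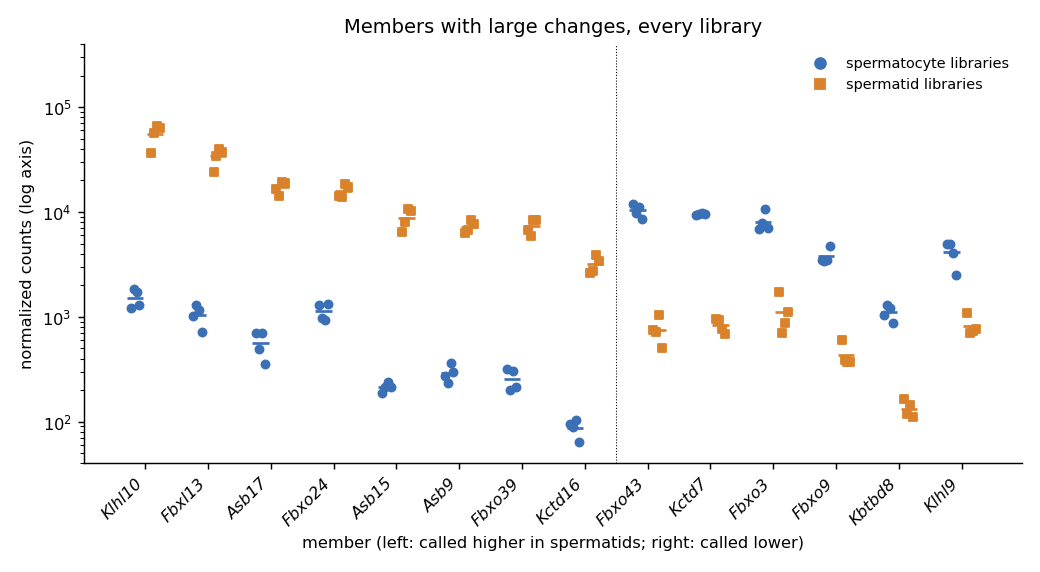
Normalized counts (log axis) in every library of members with large changes, called higher to the left of the dotted line and called lower to the right. Blue circles are spermatocyte libraries, orange squares spermatid libraries and bars the group means, and the groups overlap in none of the 14 members drawn.

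Asb proteins join ankyrin repeats to a SOCS box and serve Cul5 or Cul2. Of 16 tested models 8 rose, 2 fell and 6 were not called. Beside this, 32.5% of all tested models rose and 29.8% fell, and 35.6% and 21.1% of those with a symbol. The median log2 fold change of the Asb models was 1.04, the highest of the families. At a filter of 50 normalized counts, with 13 Asb models tested, it was 0.57, just below that of the cullins (0.59). At that filter 6 Asb models rose and 2 fell. Asb10 and Asb11, which passed the main filter through their spermatid values and were called higher, were then not tested. The Asb median stayed above 0 with equal totals (0.60), quantile normalization (0.66), TMM factors (1.17) and the GC correction (0.47), and the split was 8 to 4, 8 to 4, 8 to 2 and 7 to 3. Asb15 had 188, 213, 240.4 and 215 in spermatocytes and 6368, 8021, 10696 and 10162 in spermatids and rose 41.2-fold (log2 change 5.33, SE 0.20, limma adjusted p = 1.08e-09), the largest rise among members with a mean of 100 or more in the higher group. Fbxw20, at 0 reads in spermatocytes, has a fold that is bounded only from below. Asb17, a gene known for its expression in testis, had 704, 488, 694 and 353 in spermatocytes and 16586, 14068, 19484 and 18906 in spermatids (log2 change 4.99, SE 0.23, limma adjusted p = 3.61e-09). Its spermatid values were 30.8-fold higher in the mean, and no library of one group reached the other group. Asb9, which binds creatine kinase, had 273, 234, 363 and 300.3 in spermatocytes and 6355, 6753, 8296 and 7628 in spermatids (log2 change 4.64, SE 0.19, limma adjusted p = 1.50e-09). Asb8 (1.51), Asb5 (1.52) and, at 26.9 to 79.5 normalized counts in spermatids, Asb10 (2.93) were higher too, and the call of Asb5 was lost after the GC correction (0.79).

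Asb3 had 2141, 2259, 1842 and 1550.4 in spermatocytes and 412, 407, 275 and 308 in spermatids and fell 5.56-fold (log2 change -2.48, SE 0.21, limma adjusted p = 5.50e-07). Asb6 fell by 2.30 on the log2 scale. The scaffolds and elongins that Asb proteins use did not follow a single direction: Cul5 was at 1.05 and Cul2 at -0.41, elongin C (Tceb1) at 0.98 and elongin B (Tceb2) at 0.23.

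On the X chromosome, which is silenced in male meiosis, 7 members are listed and 5 were tested. All 5, Asb9, Asb11, Asb12, Klhl13 and Klhl15, were called higher, and 66.8% of the 831 tested X-linked models were too. Asb12 had 41.1 to 72.7 in spermatocytes and 916 to 1198 in spermatids (log2 change 4.29, SE 0.25, limma adjusted p = 1.86e-08). Klhl15, a receptor for a regulatory subunit of phosphatase PP2A, had 80.5 to 180.0 in spermatocytes and 1531 to 2082 in spermatids (log2 change 4.16, SE 0.28, limma adjusted p = 6.97e-08). Asb11 was low, at 3.93 to 15.98 in spermatocytes and 21.5 to 40.3 in spermatids. Klhl4 had 16.9, 15.7, 51.4 and 6.85 in spermatocytes and 8.96, 7.48, 9.01 and 6.53 in spermatids, the other direction in the mean. Kctd12b had at most 28.7 in any library, and neither Klhl4 nor Kctd12b was tested.

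Related members were compared within each library as the log2 ratio of their normalized counts, a measure that the scaling of the library leaves nearly untouched. Of 17 listed pairs 14 could be tested, and 10 had an exact two-sided permutation p of 0.0286, the smallest that 4 against 4 libraries allow, and 0.04 after adjustment over the 14. That p says only that the ratios of both cell types did not overlap. Single models did not overlap in 66.4% of all those tested, and ratios of arbitrary pairs were not computed. The count of 10 is thus not read as particular to these pairs. With any library left out, no pair could reach an adjusted p below 0.05. The ratio of Klhl13 to Klhl9 rose from -8.00 ± 1.43 to -3.54 ± 0.16 (mean ± SD, n = 4 each), the largest shift. Klhl9 was still the higher of both in every library. Of its exon length 15.8% is shared with Gm26566 on the other strand. Kctd15 to Kctd1, whose products act on the AP-2 factor, went from -2.20 ± 1.53 to 0.89 ± 0.51 and turned from below to above 0 in all libraries. The log2 change of Kctd15 itself was 1.99, 1.35 without spermatocyte library 1 and 2.95 without libraries 3 and 4, and that of Kctd1 was -1.10, called, and -0.97, not called, without spermatid library 3. With TMM factors Kctd1 was at -0.97 and not called either.

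Fbxl21 was low, with 9.67, 13.7, 33.5 and 14.8 in spermatocytes and 49.3, 20.6, 31.5 and 50.1 in spermatids, its groups overlapped, and its call (log2 change 1.10, SE 0.46, limma adjusted p = 0.0467) was lost in 6 of the 8 fits without a library. The ratio of Fbxo32, the muscle atrophy receptor, to Fbxo25 went from -3.49 ± 0.42 to -1.53 ± 0.84, where Fbxo25 fell and Fbxo32 overlapped between groups. Fbxo40 to Fbxo30 went from -8.88 ± 0.33 to -7.13 ± 0.20, with both members called higher, and Fbxo44 to Fbxo6 went from 0.63 ± 0.33 to 1.52 ± 0.30, again with both higher. Falling ratios were those of Cul9 to Cul7 (from 3.52 ± 0.39 to 1.40 ± 0.72), Fbxl20 to Fbxl2 (from 3.25 ± 0.52 to 1.65 ± 0.53), Kctd21 to Kctd6 (from -0.21 ± 0.66 to -1.47 ± 0.22) and Btbd2 to Btbd1 (from -2.52 ± 0.27 to -3.27 ± 0.21).

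The other 4 tested pairs did not pass. Kctd13 to Kctd10, receptors for RhoA, had nearly the same ratio in both cell types, -0.55 ± 0.43 and -0.55 ± 0.21 (exact permutation p = 1, n = 4 each), but 37.9% of Kctd10's exon length is shared with Myo1h on the other strand. Btbd6 to Btbd3 changed by -1.76 (exact permutation p = 0.0571, adjusted 0.0727), Fbxo10 to Fbxo11 by 0.63 (adjusted 0.462) and Kctd17 to Kctd5 by 0.47 (adjusted 0.233). In the Fbxo10 pair spermatocyte library 4 stood apart, at -0.23 beside -3.38 to -2.78.

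**Figure D4:**
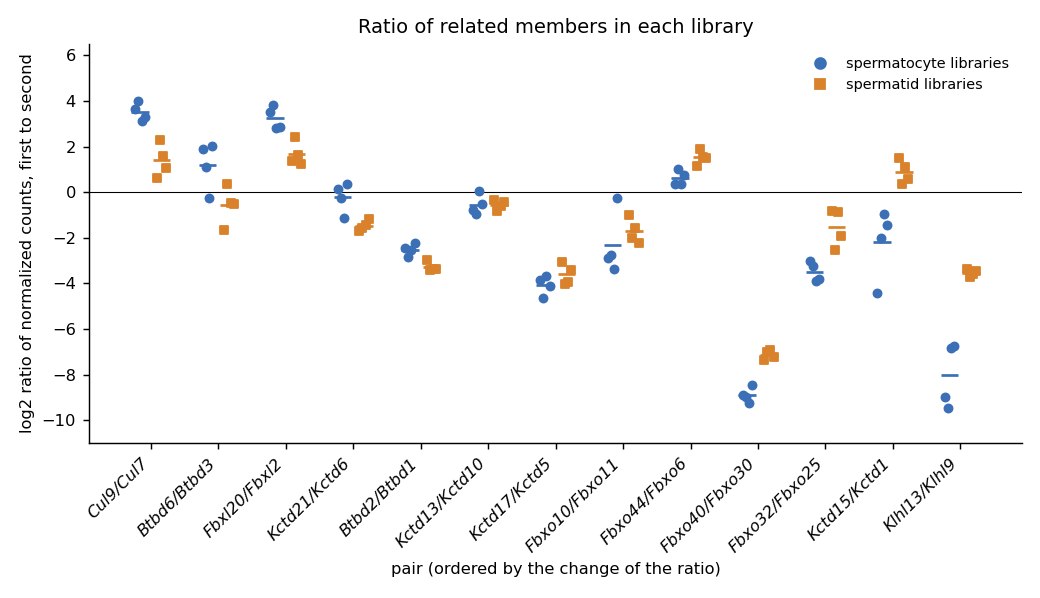
Log2 ratio of normalized counts, first to second named member, in every library for 13 of the 14 tested pairs, ordered by the change of the ratio. Blue circles are spermatocyte libraries, orange squares spermatid libraries and bars the group means, and the groups do not overlap in the 9 pairs shown that passed.

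The remaining parts of these ligases were read from a list of 77 genes outside the member rule, all of them in the table and tested. Of these 14 rose, 20 fell and 43 were not called, with a median log2 fold change of 0.08. The split was 9 to 26 with equal totals, 9 to 25 with quantile normalization, 17 to 17 with TMM factors and 11 to 23 when corrected for GC content. Of all tested models 32.5% rose and 29.8% fell, and of those with a symbol 35.6% and 21.1%. Nothing is read from these counts, or from those of the groups below, as particular to the pathway. Of the 7 core and adaptor genes Rbx1, the RING protein, fell with 1625, 1887, 2800.0 and 2216 in spermatocytes and 732, 428, 409.8 and 460.4 in spermatids (log2 change -2.08, SE 0.24, limma adjusted p = 7.37e-06). With the deposited scaling no other core gene was called: its relative Rnf7, which works with Cul5, was at -0.61, Ddb1 at -0.93 and Skp1a, the gene of the F-box adaptor Skp1, at 0.31. Rnf7 and Ddb1 were called lower with equal totals (-1.04 and -1.37), quantile normalization (-1.13 and -1.50) and the GC correction (-1.02 and -1.09), and Tceb1 was called higher with TMM factors (1.11). Ddb1 also passed without spermatocyte library 3 (-1.01) or spermatid library 2 (-1.01), and Tceb1 was called higher in 5 of the 8 fits without a library.

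Of 11 genes of the NEDD8 cycle 4 were called higher and 4 lower. The genes of the activating enzyme for NEDD8 fell, Nae1 with 4609, 5354, 5722 and 1365 in spermatocytes and 1469, 863, 704 and 903 in spermatids (log2 change -1.97, SE 0.41, limma adjusted p = 0.000861) and Uba3 by 1.76 on the log2 scale. For Nae1, spermatocyte library 4 lay within the spermatid range. Senp8, which processes NEDD8, was at -1.63, also called lower. The conjugating enzyme genes differed, with Ube2m at 0.04 and not called and Ube2f, which serves Cul5, called higher at 1.06. The call of Ube2f was lost with equal totals (0.63), quantile normalization (0.76) and the GC correction (0.69), without spermatocyte library 3 (0.86) and without libraries 3 and 4 (0.68). Of the DCN1-like genes, whose products help to attach NEDD8 to cullins, Dcun1d1 had 484, 619, 389 and 151 in spermatocytes and 3512, 4603, 5140.2 and 5674 in spermatids (log2 change 3.67, SE 0.37, limma adjusted p = 2.04e-06), and was at 3.09 without spermatocyte libraries 3 and 4. Dcun1d4 (3.28) and Dcun1d3 (1.96) rose, Dcun1d2 (-1.49) fell and Dcun1d5 (0.69) was not called. Of 9 COP9 signalosome genes Cops2 was called higher (1.24) and Cops8 (-1.82) and Gps1 (-1.28) lower, while Cops5, the catalytic subunit, was at 0.24 and not called. Cops2 had 6466, 6994, 5204 and 1872 in spermatocytes and 8984, 11833, 11479.8 and 11097 in spermatids, with spermatocyte library 4 far below the rest. Its call was lost without that library (0.80), without libraries 3 and 4 (0.68), with equal totals (0.80), quantile normalization (0.69) and the GC correction (0.18). Gps1 was highest in spermatocyte library 4, and without it was at -0.99 and not called. Cand1, which exchanges F-box receptors on Cul1, was not called at 0.47, and its paralog Cand2 was called lower at -1.05 but not with TMM factors (-0.92), without spermatocyte library 1 (-0.997) or 4 (-0.94), or without spermatid library 3 (-0.98) or 4 (-0.95). Cacul1, a protein with a cullin domain, had 680.2, 792, 918 and 369 in spermatocytes and 11568, 15289.7, 18552 and 18276 in spermatids and rose far beyond the replicate spread (log2 change 4.58, SE 0.27, limma adjusted p = 2.65e-08).

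Of 46 receptors without a member symbol 8 rose and 12 fell, which became 5 and 16 with equal totals, 5 and 15 with quantile normalization and 10 and 10 with TMM factors. Skp2, the F-box receptor for the cell cycle inhibitor p27, had 318, 263, 365 and 390.5 in spermatocytes and 3981, 3118, 4169 and 4442 in spermatids (log2 change 3.55, SE 0.20, limma adjusted p = 1.36e-08). Rhobtb2 (4.48), Spsb1 (4.67), a SOCS-box receptor, and Vprbp (2.27), a receptor of Cul4a ligases, rose as well. Among the falls were Enc1 (-3.74), Socs2 (-2.49), the Cul4a receptors Dcaf11 (-1.55) and Dtl (-1.07), and the F-box gene Kdm2a (-1.39). The call of Dtl was lost with TMM factors (-0.94) and without spermatid library 3 (-0.99). Enc1 had 429, 450.4, 1329.6 and 1042 in spermatocytes and 134, 17.8, 43.5 and 72.9 in spermatids, highest in spermatocyte library 3 and lowest in spermatid library 2, as the summed Sertoli cell markers were, and was at -3.03 without spermatocyte libraries 3 and 4. Of the BTB genes Keap1 (0.08) and Spop (-0.51) and the F-box gene Btrc (-0.02) were not called.

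In spermatocyte library 3, where the Sertoli cell markers were highest, 10 of the 166 tested members (6.02%) were at least 2 times as high as in every other spermatocyte library, beside 5.49% of all tested models and 6.15% of those with a symbol. These were Btbd3, Fbxl21, Fbxl7, Kctd12, Kctd14, Kctd6, Klhl15, Klhl23, Klhl42 and Klhl5. Kctd14 had 161, 402, 1312 and 401 in spermatocytes and 42.1, 9.35, 48.0 and 44.6 in spermatids, and spermatid library 2, the library with the lowest Sertoli markers, was its lowest. It fell 15.8-fold (log2 change -3.77, SE 0.63, limma adjusted p = 0.000157), and by 3.02 on the log2 scale without spermatocyte libraries 3 and 4. Klhl23 had 438, 768, 2212 and 642 in spermatocytes and 119, 30.8, 129 and 111 in spermatids (log2 change -3.27, SE 0.53, limma adjusted p = 0.000133), with -2.75 without those libraries. Klhl36 had 156, 225, 533 and 305 in spermatocytes and 28.7, 7.48, 45.04 and 23.9 in spermatids (log2 change -3.57, SE 0.52, limma adjusted p = 4.91e-05), with -3.02 without them. All 3 were highest in spermatocyte library 3 and lowest in spermatid library 2.

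Klhl5 had 735, 1050.1, 2545 and 1214 in spermatocytes and 728, 454, 546 and 555 in spermatids (log2 change -1.14, SE 0.33, limma adjusted p = 0.00773), and without spermatocyte libraries 3 and 4 its log2 change was -0.64 and not called (-0.80 without library 3 alone). Klhl42 changed by -1.70 and by -1.28 without both libraries, and Kctd12, of whose exon length 62.8% is shared with Gm26778 on the other strand, by -1.49 and -1.04. The summed Sertoli markers were 32535 to 157342 normalized counts in spermatocytes and 2904 to 6697 in spermatids, and the 5 Leydig cell markers 3331 to 6997 and 185 to 1099, with none of these markers at 0. Markers of macrophages and blood moved the other way, with 8 markers summing to 109.9 to 176.7 in spermatocytes and 2606 to 5483 in spermatids, although Hba-a1 was at 0 in all libraries but spermatid library 1 and Hbb-bs in spermatid libraries 2 to 4. In the same order, 5 peritubular myoid markers summed to 611 to 1115 and 970.0 to 1977, 4 endothelial markers to 399 to 489.8 and 1359 to 1623, and 7 spermatogonial markers to 892 to 2066 and 2271 to 5193. Single markers of these lists departed from the sums. The endothelial Pecam1 was at 105 to 119 in spermatocytes and 33.1 to 48.6 in spermatids. The myoid Tagln was at 363 to 519 and 230 to 390, and the spermatogonial Uchl1 at 256 to 754 and 241 to 808, in that order. The part of these cell types in the members' changes was not tested. Klhl6, known from B cells, was called higher at 2.04, with 1.96 to 6.85 normalized counts in spermatocytes and 12.0 to 27.1 in spermatids. It passed the filter through spermatids alone, so a rise was favoured in advance.

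**Figure D5:**
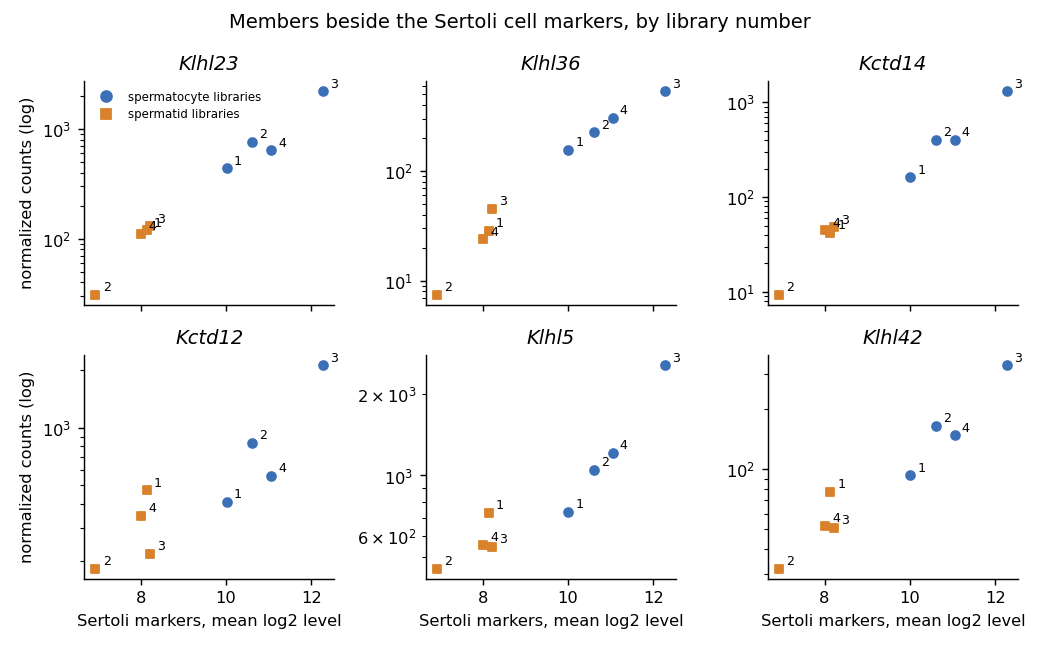
Normalized counts (log axis) of 6 members against the mean log2 level of 10 Sertoli cell markers in each of the 8 libraries, numbered by library, with spermatocytes as blue circles and spermatids as orange squares. Spermatocyte library 3 is highest on both axes and spermatid library 2 lowest on both in all 6 panels. The members were picked for this pattern, so no correlation is given.

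Library 4 of the spermatocytes, with low Sycp1 and Sycp3, was at most 0.5 times every other spermatocyte library in 5 of the 166 tested members (3.01%, beside 9.22% of all models and 5.67% of those with a symbol), which were Cul2, Fbxo11, Fbxw15, Kbtbd3 and Kctd4. Fbxo11 had 566, 785, 1257 and 168 in spermatocytes and 1033, 1029, 1070.4 and 1308 in spermatids and was not called (log2 change 1.00, SE 0.47, limma adjusted p = 0.0771). Its change was 0.42 without spermatocyte library 4, 0.73 without libraries 3 and 4 and 1.39, called higher, without library 3, and it was also called with TMM factors (1.13). Without both spermatocyte libraries 3 and 4, 53 members were called higher and 37 lower.

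Upstream sequences of 6 members are shown because their levels frame the results: the risers Klhl10 and Asb17, which had the highest levels per kb of exon in spermatids among members called higher, the riser Fbxo39, the abundant scaffold Cul3, and the fallers Cul4a and Kctd7. Each is the 250 bases before the annotated start in RefSeq (GRCm38.p6), 5′ to 3′ on the gene's strand, with the letters TGACG or, on the other strand, CGTCA in capitals. These letters are the core of one arm of the cyclic AMP response element that the CREB and CREM factors bind, and CREM is known as an activator of genes in spermatids.
Klhl10, chr11:100441674-100441923, plus strand: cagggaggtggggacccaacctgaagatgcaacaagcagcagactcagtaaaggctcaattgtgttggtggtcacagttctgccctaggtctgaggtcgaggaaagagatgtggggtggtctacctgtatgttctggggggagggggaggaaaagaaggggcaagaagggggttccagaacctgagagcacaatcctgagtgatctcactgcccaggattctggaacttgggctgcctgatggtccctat
Asb17, chr3:153843997-153844246, plus strand: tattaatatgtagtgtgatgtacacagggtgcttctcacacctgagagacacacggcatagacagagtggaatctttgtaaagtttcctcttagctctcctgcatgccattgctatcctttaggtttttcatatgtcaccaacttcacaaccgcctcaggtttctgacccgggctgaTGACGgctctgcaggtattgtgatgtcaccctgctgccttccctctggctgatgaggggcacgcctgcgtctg
Fbxo39, chr11:72314194-72314443, plus strand: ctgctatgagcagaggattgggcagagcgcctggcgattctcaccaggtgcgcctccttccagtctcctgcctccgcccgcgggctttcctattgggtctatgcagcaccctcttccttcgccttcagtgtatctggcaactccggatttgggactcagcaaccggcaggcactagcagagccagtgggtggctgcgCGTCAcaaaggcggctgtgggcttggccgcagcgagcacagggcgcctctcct
Cul3, chr1:80340691-80340940, minus strand: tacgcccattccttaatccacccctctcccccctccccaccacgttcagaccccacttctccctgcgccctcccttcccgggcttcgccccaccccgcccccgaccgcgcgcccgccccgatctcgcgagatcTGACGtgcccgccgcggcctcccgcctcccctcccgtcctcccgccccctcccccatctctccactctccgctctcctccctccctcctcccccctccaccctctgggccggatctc
Cul4a, chr8:13105373-13105622, plus strand: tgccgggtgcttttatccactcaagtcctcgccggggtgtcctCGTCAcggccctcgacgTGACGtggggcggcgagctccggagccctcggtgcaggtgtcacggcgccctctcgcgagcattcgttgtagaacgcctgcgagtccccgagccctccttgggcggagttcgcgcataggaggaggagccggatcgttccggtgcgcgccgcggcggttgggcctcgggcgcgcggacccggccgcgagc
Kctd7, chr5:130144633-130144882, plus strand: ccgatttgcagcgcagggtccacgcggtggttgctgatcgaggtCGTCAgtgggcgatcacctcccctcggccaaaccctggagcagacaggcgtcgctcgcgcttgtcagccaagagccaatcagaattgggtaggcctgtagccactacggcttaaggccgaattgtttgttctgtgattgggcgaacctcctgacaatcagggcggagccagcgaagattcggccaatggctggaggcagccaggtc

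The letters were absent from the window of Klhl10, present once in Asb17 (73 bases before the start), Fbxo39 (53), Cul3 (117) and Kctd7 (206), and present at 2 places in Cul4a (207 and 190). Windows were matched by symbol, taking for a symbol with several models the one with the highest spermatid level, and the table held 140 of 179 symbols: 45 of 52 called higher, 27 of 39 called lower, 57 of 73 not called and 11 of 15 not tested. TGACG on either strand was found in 17 of 45 called higher (37.8%), 10 of 27 called lower (37%), 16 of 57 not called (28.1%) and 2 of 11 not tested (18.2%), beside 5347 of all 27025 genes with a window (19.8%). A gene counts where any of its windows holds the letters. Those 27025 genes were not limited to tested models or matched for GC content, so nothing is read from the difference.  The full palindrome TGACGTCA, which contains TGACG, was in 1 of 45 higher, 0 of 27 lower and 1 of 57 not called, beside 1.77% of all. CCAAT on either strand was in 12 of 45 higher (26.7%) and 12 of 27 lower (44.4%), beside 37.5% of all, and TATAAA in 4 of 45 (8.89%) and 3 of 27 (11.1%), beside 14.3%. A match is a run of letters and was not tested as a binding site.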

How the data were processed

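RNA of 4 spermatocyte and 4 spermatid libraries was measured, numbered in the order of their records. Per the labels' protocols, RNA was treated with DNase and stranded mRNA libraries were made with a TruSeq kit. Tools named in the submitters' processing notes are STAR 2.4.0, SAMtools, Picard, FastQC and DESeq, with mm10 as the build. The tool that counted reads, and how it used strand, is not given in the sources used here. The deposited signal is a read count divided by a size factor per library, per the file headers, and 100% of values above 0 lay within 10% of a whole number of reads. Another 8 columns of per-sample values in the table were left out.

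Values were taken as log2(normalized count + 1), and log2 changes are on that scale, which understates the change of low genes. The test was limma 3.58.1 (trend and robust moderation, R 4.3.3), spermatids minus spermatocytes, without covariates, on models that reached 10 normalized counts in 4 or more libraries, with Benjamini-Hochberg adjustment over 28735 models. On simulated counts for this comparison over 28735 models, an adjusted p below 0.05 in the right direction was given to 14% of 100 models changed by 1 on the log2 scale, to 87% of 100 changed by 2, and to 7 of 28535 unchanged models. In the data 20764 of the 28735 models had an adjusted p below 0.05, so the adjustment was far stricter in the simulation. These shares thus do not measure how many changes of such size were missed in the data. edgeR 4.0.16 and DESeq2 1.42.0 were run on the recovered whole reads and called 50 members higher and 41 lower each. Other alternatives changed the pseudocount, filter, scaling, GC content (loess span 0.3) and the libraries used. Pair ratios used exact permutation tests.

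Exon length, GC content and exon overlap came from GENCODE vM21 (GRCm38, 181 of 182 members matched by symbol and position; GC content of the longest transcript), levels per kb divide by the union of exons, and upstream windows came from RefSeq (GRCm38.p6). Floors of 3 reads cover counting error only. Replicate libraries differed beyond sampling noise (smallest chi-square per degree of freedom 12.2). Named were all cullins, the largest called rise and fall (with a mean of 100 or more in the higher group) and the highest member of each family, members known from germ cell work and the pair members; others were chosen after their values were seen. A member under this rule and its pair ratio are not reported here, but are included in counts. The members, gene lists and rules were chosen with earlier results of these data known.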

Additional observations from a re-analysis of the deposited data

Results flagged for a closer look

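For the named members, each group of 4 libraries was searched for a library whose gap to the nearest other, divided by the group's range, exceeded Dixon's critical value, and 8 of 124 groups held one, where chance flags about 1 in 20. In spermatids, library 1 stood below the others for Cul3 (52554 normalized counts) and Btbd1 (7791.6) and above them for Fbxl18 (180.01) and Klhl9 (1081.9). Library 2 stood below the others for Kctd14 (9.3452) and library 4 above them for Fbxo11 (1308.3). In spermatocytes, library 3 stood below the others for Fbxw17 (261.66) and Kctd10 (1277.0).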

How the results depend on the processing

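Members called higher numbered 42 to 57 and those called lower 37 to 57 over all alternatives, each within 1.5 times the counts of 52 and 40; leaving out single libraries gave 49 to 52 and 39 to 42. Over 61 tested named members and 1340 alternatives, 1283 kept their direction and their side of the threshold, 30 lost a call, 14 gained one and 13 turned sign. With equal totals the log2 change was -0.256 for Fbxo32, -0.09 for Fbxo5 and -0.088 for Kctd17. With quantile normalization it was -0.135 for Btbd1, -0.131 for Fbxo32, -0.038 for Fbxo5 and -0.041 for Kctd17. After the GC correction it was -0.247 for Cul3, -0.251 for Fbxo32, -0.11 for Fbxo5 and -0.009 for Btbd1. With TMM factors Kctd5 was at 0.001, and without single libraries Fbxo32 ranged from -0.287 (without spermatid library 1) to 0.478; none of these members was called. Pathway genes called higher numbered 9 with equal totals and 9 with quantile normalization, beside 14; the cause was not tested. Of the 10 pair ratios 0 passed without any single library (range 0 to 0) and 0 without spermatocyte libraries 3 and 4, since the smallest possible p rises with fewer libraries. The restriction to genes with a known GC content was chosen after seeing the data. No paired analysis was possible because the labels give no replicate numbers that the groups share. Members near the floor of 3 reads have too few reads for small changes to be detected.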
